A study of Homo sapiens with 4 samples.

Results

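The genes described here are 10 regulators of the integrated stress response in PANC-1, an established line from a human pancreatic ductal adenocarcinoma. They were chosen by gene symbol from a table of 24483 genes, and all 10 were found in it: ATF4, ATF3, DDIT3, TRIB3, CHAC1, SESN2, DDIT4, CEBPB, NUPR1 and PPP1R15A. The cells, wild-type by label and grown with 10% fetal bovine serum, received 30 mM sodium lactate or water, the vehicle, for 24 h. RNA bound to the methyltransferase NSUN2, which places 5-methylcytosine on RNA, was pulled down from lysates for 4 h with an antibody (IP), and input RNA was kept from before that step. Input and IP of both treatments gave 4 libraries of amplified full-length cDNA, 1 for each group. No value below therefore has a replicate error, no p-value across genes is given, and intervals cover counting error only. An IP with a control antibody was not analysed here, so RNA bound by NSUN2 and RNA carried along without it cannot be told apart.

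The integrated stress response starts when kinases phosphorylate the initiation factor eIF2, which slows translation at large and favours that of a few messages with upstream open reading frames, ATF4 among them. ATF4 is a basic leucine zipper (bZIP) transcription factor that pairs with C/EBP proteins and induces genes of amino acid supply, redox balance and, under lasting stress, cell death. DDIT3 (CHOP), ATF3 and CEBPB are further bZIP factors of this network, NUPR1 is a small stress-induced chromatin protein, and TRIB3 is a pseudokinase that binds and restrains ATF4. CHAC1 degrades glutathione, SESN2 and DDIT4 both restrain mTORC1, and PPP1R15A (GADD34) directs a phosphatase back to eIF2 and so closes the loop.

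The composite site of C/EBP and ATF factors, TGATGNAAN, is the best known DNA element of this response, and promoters that hold it or a cyclic AMP element are shown. RefSeq promoters (GRCh38.p14, 250 bases before to 50 bases after a start) were given for 9 of the 10 genes, as 15 promoters. On either strand, TGATGNAAN was found in 2 of the 15 promoters, 1 each of CHAC1 and ATF3, against 3.61% of all 35116 promoters. The core TGATG alone, which lies within it, was found in 3 of the 15, of the same 2 genes, and in 32.9% of all promoters. The cyclic AMP element TGACGTCA, a site of ATF and CREB dimers, was found in 1 of the 15, that of PPP1R15A, and in 1.85% of all promoters. The stretches below run 5′ to 3′ on the gene's strand through the 250 bases before the start, with the match in capitals. The CHAC1 stretch (chr15:40953221-40953470, + strand) holds the element on the opposite strand, where it reads TGATGCAAC, 210 to 202 bases before the start. The ATF3 stretch (chr1:212565157-212565406, + strand) precedes the outermost start of ATF3 and holds TGATGGAAG 191 to 183 bases before it. The PPP1R15A stretch (chr19:48872171-48872420, + strand) holds its match 58 to 51 bases before the start. A match is a description of these letters and says nothing of binding.
CHAC1: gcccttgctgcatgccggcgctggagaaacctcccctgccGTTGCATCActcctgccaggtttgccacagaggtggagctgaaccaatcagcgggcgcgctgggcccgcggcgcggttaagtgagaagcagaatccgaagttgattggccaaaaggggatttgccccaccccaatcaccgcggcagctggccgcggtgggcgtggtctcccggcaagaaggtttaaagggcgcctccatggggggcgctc
ATF3: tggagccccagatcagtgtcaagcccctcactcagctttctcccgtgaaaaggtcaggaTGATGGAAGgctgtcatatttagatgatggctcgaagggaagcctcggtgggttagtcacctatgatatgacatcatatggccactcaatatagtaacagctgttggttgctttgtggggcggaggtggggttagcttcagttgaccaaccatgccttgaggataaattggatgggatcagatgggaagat
PPP1R15A: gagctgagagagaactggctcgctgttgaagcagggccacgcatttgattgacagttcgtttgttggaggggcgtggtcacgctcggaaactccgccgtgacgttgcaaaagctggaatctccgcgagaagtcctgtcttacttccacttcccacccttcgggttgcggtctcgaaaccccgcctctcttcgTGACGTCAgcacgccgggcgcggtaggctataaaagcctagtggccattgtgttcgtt

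Levels are in FPKM, a read number scaled to gene length in kilobases and to 1000000 reads of the library. Library totals ranged from 11175432 to 17626197 reads. Genes outside the mitochondrial genome held 31.3% of reads in the input and 30.3% in the IP of vehicle cells, and 20.9% and 13.9% in those of lactate cells, and the mitochondrial ribosomal RNA MT-RNR2 held most of the rest. Since the mitochondrial reads are part of the total that FPKM divides by, each change is also given relative to the median gene of its comparison. The ductal line was recognisable, with VIM, KRT8, KRT18, KRT19 and KRT80 at FPKM of at least 1 in every library, and EPCAM at that level in the inputs only. KRT7, also among the ductal markers sought, was under that level in every library. Fibroblast markers summed to between 1.78 and 3.06, from COL1A1 and COL3A1, and the endothelial, immune and neuronal markers in the table to at most 0.0196. No acinar or islet marker was in the table.

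The levels of the regulators spanned a wide range in the vehicle input. ATF4 (ENSG00000128272, chr22:39520559-39522686) had FPKM 214 and ranked 70 among all genes of that library. The next were CEBPB at 8.67, TRIB3 at 6.19, DDIT3 at 5.86, CHAC1 at 4.34 and DDIT4 at 4.18. PPP1R15A at 1.5, NUPR1 at 1.46, SESN2 at 1.03 and ATF3 at 0.730 were the lowest. The read numbers behind these values were 9874 for ATF4, between 135 and 359 for the middle group together with NUPR1, 81 for PPP1R15A, 63 for SESN2 and 26 for ATF3. ATF4 thus stood apart from the other 9 genes, all of which had FPKM under 10.

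**Figure D1:**
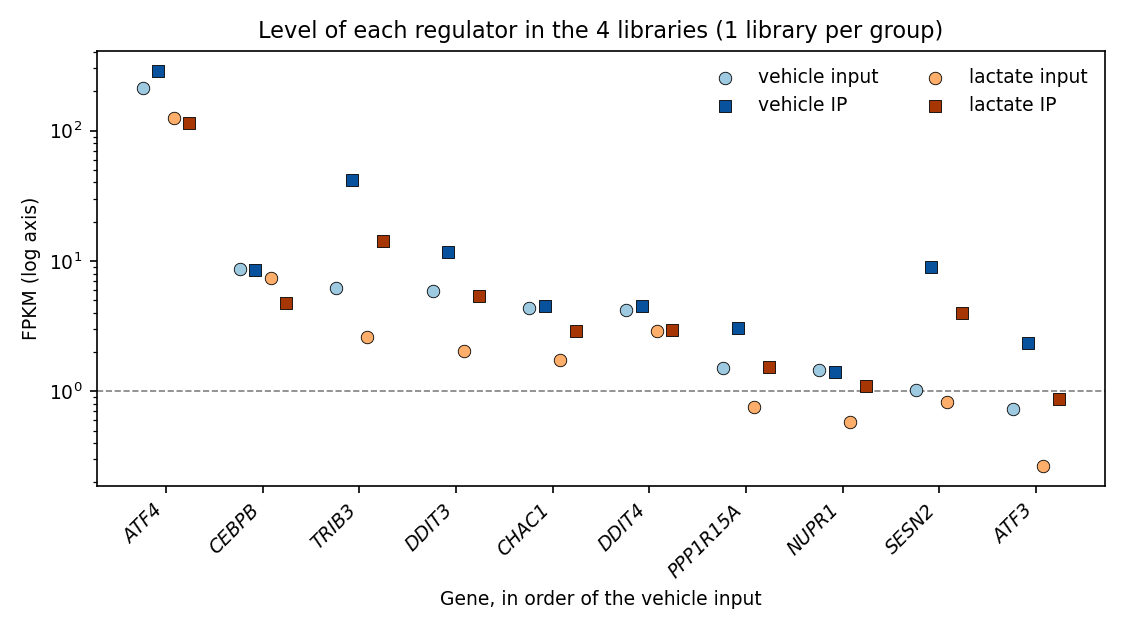
FPKM (log axis) of the 10 regulators in the vehicle input and IP (blue) and the lactate input and IP (orange), 1 library per group, with the dashed line at FPKM 1. ATF4 lies between 115 and 289 in the 4 libraries. TRIB3, SESN2, DDIT3, ATF3 and PPP1R15A lie higher in each IP than in its own input, as do CHAC1 and DDIT4 by smaller ratios.

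The input libraries address how lactate treatment bears on RNA levels. All 10 regulators had a lower FPKM in the lactate input as deposited, but SESN2, DDIT4 and CEBPB changed sign when libraries were rescaled to median ratios or equal nuclear totals. On log2 ratios of FPKM + 1, 1 of 9 members with FPKM of at least 1 in either input was at least 2-fold lower (6.46% of 6766 genes) and 0 were at least 2-fold higher (1.76%). Over all 10 members, with ATF3 under the FPKM minimum included, the median was −0.57, against −0.43 over the measured genes, and 7 members lay under the median gene and 3 over it. On log2 ratios without a pseudocount, where the median gene was at −0.59, the 95% counting intervals of 5 members lay wholly under the median gene, and that of 1 member, CEBPB, lay over it. The share of all genes with such intervals was not measured, and intervals narrow as read numbers rise. ATF3 stayed under FPKM 1 in both inputs.

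Among the transcription factors, ATF4 went from FPKM 214 to 124, on 9874 and 3627 reads. Its log2 ratio was −0.79 (95% interval −0.84 to −0.73), the most precise of the set, and −0.20 relative to the median gene. DDIT3 (ENSG00000175197, chr12:57516588-57520517), the pro-apoptotic partner of C/EBP proteins, went from FPKM 5.86 to 2.05, on 135 and 30 reads. Its log2 ratio was −1.51 (−2.13 to −0.93), or −1.17 with the pseudocount, which made it the member past 2-fold. DDIT3 was the lowest of the 9 measured members and ranked 234 from the bottom of 6766 genes.

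ATF3 (ENSG00000162772, chr1:212565407-212620777), a repressor of the same family, went from FPKM 0.730 to 0.266 on only 26 and 6 reads. Its interval, −3.03 to −0.15, held both the median gene and the ratio of DDIT3. NUPR1 (ENSG00000176046, chr16:28532708-28538974) went from FPKM 1.46 to 0.585, on 142 and 36 reads, at a log2 ratio of −1.32 (−1.89 to −0.79). CEBPB (ENSG00000172216, chr20:50190583-50192690), a C/EBP factor that also serves inflammatory and acute-phase responses, moved least of the transcription factors. It had FPKM 8.67 and 7.40, on 281 and 152 reads, and a log2 ratio of −0.23 (−0.52 to 0.06). CEBPB therefore stood 0.36 above the median gene (0.07 to 0.65), apart from ATF4, DDIT3 and NUPR1, whose intervals lay under that gene.

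The effectors also varied in their position against the median gene. TRIB3 (ENSG00000101255, chr20:380760-397559) went from FPKM 6.19 to 2.61, on 359 and 96 reads, at a log2 ratio of −1.25 (−1.59 to −0.92). CHAC1 (ENSG00000128965, chr15:40953471-40956512) went from FPKM 4.34 to 1.75, on 157 and 40 reads, at −1.32 (−1.85 to −0.81). Both intervals lay under the median gene. Those of the mTORC1 inhibitors were not wholly under it. SESN2 (ENSG00000130766, chr1:28259518-28282491) had FPKM 1.03 and 0.827, on 63 and 32 reads, and DDIT4 (ENSG00000168209, chr10:72273924-72276036) had 4.18 and 2.92, on 156 and 69 reads. Their log2 ratios of −0.32 (−0.98 to 0.32) and −0.52 (−0.95 to −0.10) both held the median gene. Both intervals also held that of ATF4 (−0.84 to −0.73), so neither gene was shown to stand apart from ATF4. PPP1R15A (ENSG00000087074, chr19:48872421-48876058), the feedback phosphatase subunit, went from FPKM 1.5 to 0.759 on 81 and 26 reads, at −0.98 (−1.68 to −0.33), an interval that also held the median gene.

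**Figure D2:**
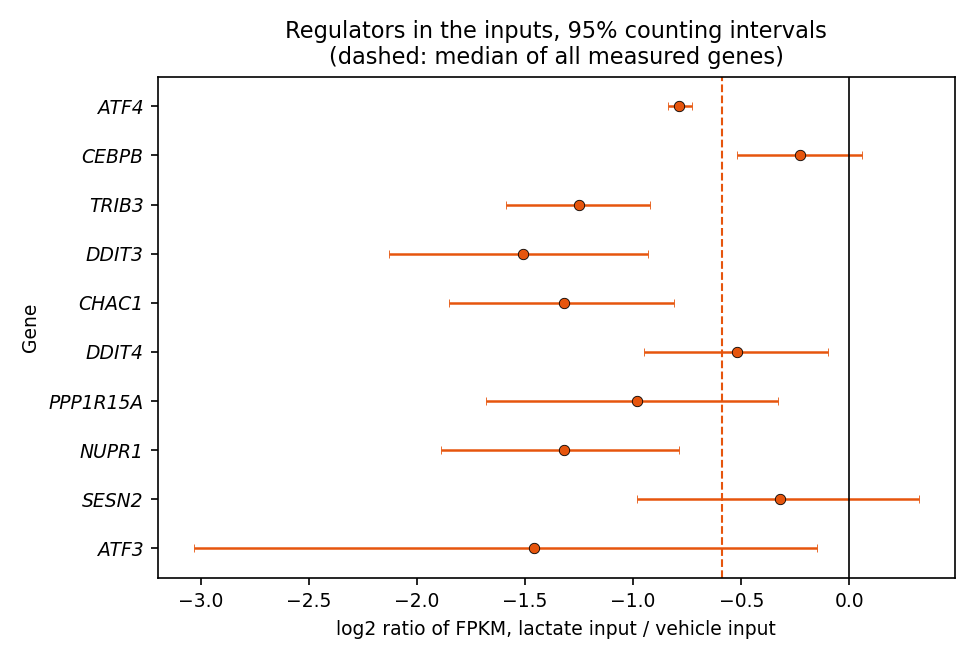
Log2 ratio of FPKM, lactate input over vehicle input, for each regulator, with 95% counting intervals as bars, the solid line at 0 and the dashed line at the median of all measured genes (−0.59). The bars of ATF4, TRIB3, DDIT3, CHAC1 and NUPR1 lie left of the dashed line, and that of CEBPB lies right of it.

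The IP was set against its own input in each condition to show which messages were enriched with NSUN2. In vehicle cells 2 of 10 members, TRIB3 and SESN2, were at least 2-fold higher in the IP on FPKM + 1 (27.6% of 9099 genes), and 0 were at least 2-fold lower (15.3%). In lactate cells 3 of 9 measured members, TRIB3, SESN2 and DDIT3, were at least 2-fold higher (16.0% of 7170 genes) and 0 lower (23.3%). The median over all 10 members was 0.57 in vehicle and, with ATF3 under the FPKM minimum included, 0.51 in lactate cells, against 0.44 and −0.10 over all genes. The share of members past 2-fold was below the share of all genes in vehicle cells and above it in lactate cells, and neither was tested. The 2 comparisons share no library.

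TRIB3 was the most enriched regulator by rank and had the most reads of those at least 2-fold higher in the IP. Its FPKM was 6.19 in the vehicle input and 42.0 in the vehicle IP, on 359 and 1881 reads, and 2.61 and 14.2 in the lactate pair, on 96 and 709 reads. Both IP values lay above both inputs. The log2 enrichment was 2.76 (2.60 to 2.93) in vehicle and 2.44 (2.13 to 2.76) in lactate cells, 6.78-fold and 5.43-fold. On FPKM + 1, TRIB3 ranked 56 of 9099 genes in vehicle and 74 of 7170 in lactate cells.

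SESN2 had the largest ratio without a pseudocount in vehicle cells. Its FPKM was 1.03 in the input and 8.91 in the IP, on 63 and 420 reads, and 0.827 and 3.99 in the lactate pair, on 32 and 210 reads. The log2 enrichment was 3.11 (2.72 to 3.51) and 2.27 (1.73 to 2.86). ATF3 came next, from FPKM 0.730 to 2.36 in vehicle cells and from 0.266 to 0.880 in lactate cells. Its log2 enrichments of 1.69 (1.02 to 2.41) and 1.73 (0.42 to 3.29) were nearly alike, but the lactate value rests on 6 input and 27 IP reads. DDIT3 went from FPKM 5.86 to 11.7 and from 2.05 to 5.39, at 1.00 (0.68 to 1.32) and 1.39 (0.80 to 2.03). PPP1R15A went from FPKM 1.5 to 3.07 and from 0.759 to 1.53, at 1.03 (0.62 to 1.45) and 1.01 (0.34 to 1.71). The intervals of TRIB3, SESN2, ATF3 and DDIT3 lay over the median gene, at 0.62 in vehicle and −0.17 in lactate cells, in both conditions. That of PPP1R15A lay over it in lactate cells and reached it in vehicle cells. How many of all genes had such intervals was not measured.

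The most abundant regulator lay above its input in vehicle cells, but its interval was not wholly over the median gene in either condition. ATF4 had FPKM 214 in the vehicle input and 289 in the vehicle IP, and 124 and 115 in the lactate pair, with 3627 to 10288 reads in each library. Its log2 enrichment of 0.43 (0.39 to 0.47) in vehicle cells was 0.19 under the median gene, and −0.11 (−0.18 to −0.05) in lactate cells was within counting error of it. CEBPB was the lowest of the set in lactate cells, with FPKM 8.67 and 8.54 in the vehicle pair and 7.40 and 4.80 in the lactate pair. Its log2 enrichment was −0.02 (−0.28 to 0.24) in vehicle and −0.62 (−0.97 to −0.28) in lactate cells, under the median gene in both. DDIT4 had FPKM 4.18 and 4.54 in the vehicle pair, and 2.92 and 2.95 in the lactate pair. Its enrichments of 0.12 (−0.23 to 0.46) and 0.02 (−0.44 to 0.49) lay under the median gene in vehicle cells and held it in lactate cells.

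CHAC1 and NUPR1 differed in position between the conditions. CHAC1 had FPKM 4.34 and 4.51 in the vehicle pair, on 157 and 126 reads, and 1.75 and 2.89 in the lactate pair, on 40 and 90 reads. Its log2 enrichment was 0.05 (−0.30 to 0.40), under the median gene, in vehicle cells and 0.73 (0.17 to 1.30), over it, in lactate cells. NUPR1 had FPKM 1.46 and 1.41 in the vehicle pair, on 142 and 106 reads, and 0.585 and 1.09 in the lactate pair, on 36 and 91 reads. Its log2 enrichment was −0.05 (−0.43 to 0.32), under the median gene, and 0.90 (0.32 to 1.49), over it. Of the authors' NUPR1 peaks, described below, the one in both lists went the other way in fold, 2.18 in vehicle and 1.66 in lactate cells. A second, with a fold of 3.10, was listed in lactate cells only. The gene's 106 reads in the vehicle IP are fewer than the 1165 at the summit of the shared peak.

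**Figure D3:**
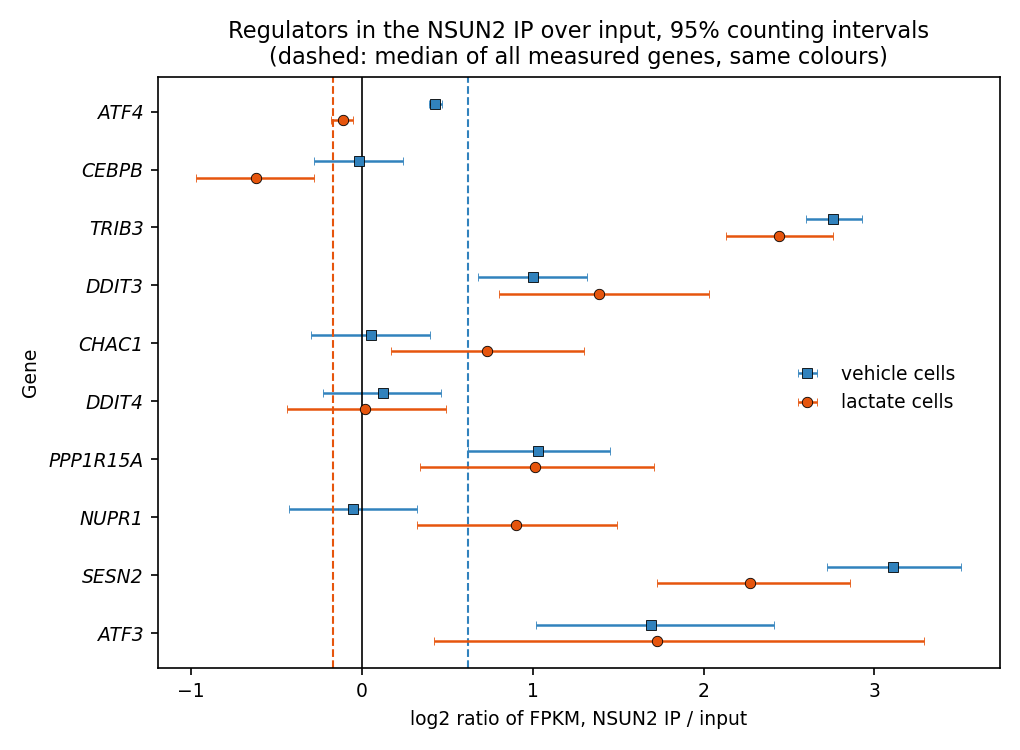
Log2 ratio of FPKM, NSUN2 IP over input, for each regulator in vehicle cells (squares) and lactate cells (circles), with 95% counting intervals as bars and dashed lines at the median of all measured genes (0.62 in vehicle and −0.17 in lactate cells). TRIB3 and SESN2 lie above 2 in both conditions. In vehicle cells the whole bars of CHAC1, NUPR1, ATF4 and DDIT4 lie under the vehicle median. In lactate cells the whole bars of CHAC1 and NUPR1, and only the points of ATF4 and DDIT4, lie over the lactate median.

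The enrichment in lactate cells was then set against that in vehicle cells. The members' median was −0.28, against −0.36 over all genes, and turned to 0.07 with median ratio scaling and 0.22 with nuclear scaling. On FPKM + 1, 0 of 10 members differed by at least 2-fold upward (3.04% of 9445 genes) and 0 downward (9.56%). Without a pseudocount the median gene was at −0.49, and 3 members had intervals wholly above it. These were NUPR1 at 0.94 (0.28 to 1.61), CHAC1 at 0.67 (0.04 to 1.31) and DDIT3 at 0.40 (−0.27 to 1.06). For NUPR1 the peak in both lists had a lower fold in lactate cells, opposite to this gene value. No member had an interval wholly under the median gene, and the lowest was SESN2 at −0.84 (−1.50 to −0.18). The same counts over all genes were not measured. TRIB3 stood at −0.32 (−0.67 to 0.03), ATF4 at −0.55 (−0.62 to −0.47) and CEBPB at −0.60 (−1.03 to −0.18), and all 3 held the median gene. NUPR1, CHAC1 and DDIT3 are also among the 5 members under the median gene in the inputs. Both comparisons use the lactate and vehicle inputs, so a low lactate input by itself lowers the one and raises the other.

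Between the IP libraries themselves, all 10 members had a lower FPKM with lactate as deposited, and 6 of them changed sign under rescaling, all but ATF4, ATF3, TRIB3 and SESN2. On FPKM + 1, 2 of 10 members were at least 2-fold lower (27.7% of 8366 genes) and 0 higher (1.64%). These were TRIB3 at −1.50 and ATF4 at −1.33, and the members' median was −0.78 against −0.74 over all genes. Without a pseudocount the median gene was at −1.10. TRIB3 at −1.56 (−1.69 to −1.44) and ATF4 at −1.33 (−1.38 to −1.28) had intervals under it, and NUPR1 at −0.38 (−0.80 to 0.04), DDIT4 at −0.62 (−1.02 to −0.23) and CHAC1 at −0.64 (−1.05 to −0.24) had intervals over it. The remaining 5 members held the median gene. Shares of all genes with intervals under or over the median gene were not measured. With FPKM rescaled to equal nuclear totals the members' median was 0.05 and 0 members were 2-fold lower.

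The authors listed peaks of each IP over its own input, 95785 in vehicle and 48104 in lactate cells, with a fold and a q per peak that are the authors' own values. The vehicle list held 16 peaks on 7 of the 10 members, while 90.2% of 7363 measured protein-coding genes had a peak there. The lactate list held 12 peaks, also on 7 members, against 78.9% of 5892 genes. With q of at most 0.05, 12 vehicle peaks on 7 members and 9 lactate peaks on 6 members were left, against 83.1% and 65.1% of genes. ATF4, ATF3, TRIB3, SESN2, NUPR1 and PPP1R15A had peaks in both lists, DDIT3 in the vehicle list, CHAC1 in the lactate list, and CEBPB and DDIT4 in neither. A peak in 1 list and not in the other is no test of a difference, since the lists differ in depth and length.

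By q, the strongest peak of the set lay in the 3′ UTR of TRIB3, at chr20:396955-397655 in vehicle cells, with a fold of 10.1 and a −log10 q of 522. It ranked 66 by q of the 95785 vehicle peaks. In lactate cells it spanned chr20:397015-397642, with a fold of 6.39 and a −log10 q of 111, and ranked 161 of 48104. The summits lay 35 bp apart, at 150 and 115 bp from the 3′ end of the gene. The other 2 TRIB3 peaks, both given as intronic and only in the vehicle list, had q of 0.816 and 1, and the one with q of 1 lies before the RefSeq start of the gene.

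SESN2 had the most peaks, 7 in vehicle and 4 in lactate cells. In the vehicle list its highest fold, 22.7, was in the 3′ UTR at chr1:28280820-28281629 (−log10 q 99.3), where the lactate peak had a fold of 5.02 (−log10 q 13.4). A second 3′ UTR peak nearer the end of the gene, at chr1:28281849-28282550, went the other way in fold, from 6.79 to 8.87, with −log10 q of 36.8 and 20.7. An intronic SESN2 peak at chr1:28263704-28264229 had a fold of 10.5 in vehicle cells and 5.83 in the overlapping lactate peak. Peak folds from separate lists are given side by side and are not a test of change.

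ATF3 had 1 peak in its 3′ UTR, at chr1:212620380-212620767, with a fold of 6.20 and a q of 1.75e-27 in vehicle cells and a fold of 2.16 and a q of 0.706 in lactate cells. ATF4 had 1 exon peak, at chr22:39522360-39522661, with a low fold and a high score in both lists (1.68 and −log10 q 238, then 1.29 and 20.2). PPP1R15A had a shared exon peak at chr19:48873573-48873848 with folds of 4.17 and 3.07 and q of 0.000564 and 1. Its lactate peak that passed, at chr19:48874706-48874964, had a fold of 4.79 and a q of 0.00139. Its best vehicle peak, at chr19:48875709-48876066 (fold 4.60, q 3.16e-15), lay 138 bp from the 3′ end. The CHAC1 peak of lactate cells was in the 3′ UTR at chr15:40956184-40956477 (fold 3.41, q 2.93e-08), 164 bp from the 3′ end. The DDIT3 peak of vehicle cells was an exon peak at chr12:57517143-57517494 with a fold of 2.05 and a q of 0.00141.

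In all, 9 peaks of the members overlapped between the lists by at least 1 bp, which is 9 of 16 vehicle peaks and 9 of 12 lactate peaks, and each of these pairs overlapped by at least 50% of both peaks. Their summits lay 10 to 235 bp apart. When the authors merged both lists into regions, 9 of 19 member regions had a peak in both, against 26381 of all 116484, a difference that was not tested. The 3′ UTR held 5 of the 16 vehicle and 7 of the 12 lactate peaks, compared with 15.8% and 18.1% of all peaks on protein-coding genes. Of the summits, 6 of 16 and 5 of 12 lay within 1000 bp of the 3′ end of the gene, and the share over all peaks was not measured. The median fold of the members' peaks was 3.53 and 3.33, against 3.03 and 3.24 over each whole list.

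**Figure D4:**
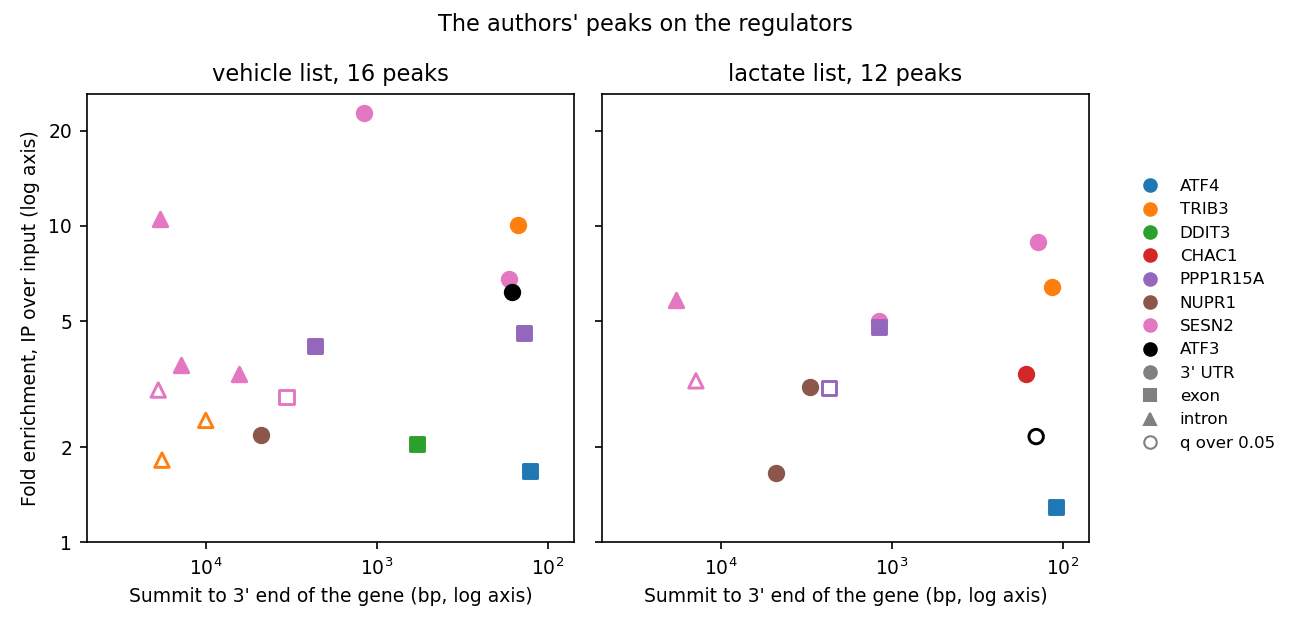
Fold enrichment of each of the authors' peaks on the regulators (log axis) against the distance from its summit to the RefSeq 3′ end of the gene (log axis, 3′ end to the right), for the vehicle and lactate lists. Circles are 3′ UTR, squares exon and triangles intron peaks, open symbols have q over 0.05, and the TRIB3 3′ UTR peak lies 150 and 115 bp from the gene's end.

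The peak on NUPR1 did not match the gene's level. At chr16:28537272-28537635, in the 3′ UTR, it had a fold of only 2.18 but a −log10 q of 118 in vehicle cells, and 1.66 and 11.7 in lactate cells. The listed fold and p of a vehicle peak fix the number of IP reads at its summit, which came out whole for 100% of 2000 sampled peaks within 0.001 of the −log10 p. Those peaks had moderate p-values, and the peaks of TRIB3, ATF4 and NUPR1 and the first 3′ UTR peak of SESN2 had smaller p-values than any of them, with deviations of up to 0.0011, that of TRIB3. For NUPR1 this number was 1165 over a background of 535, whereas the whole gene had 106 reads in the vehicle IP of the FPKM table. Of 6640 measured protein-coding genes with a peak, 134 (2.02%) had more reads at the summit than in the gene table, and 4 had over 10 times as many. NUPR1 was the only 1 of the 7 members with a vehicle peak to show this excess. For TRIB3 the summit had 851 of 1881 gene reads, for ATF4 4842 of 10288, for ATF3 61 of 65, for SESN2 96 of 420, for PPP1R15A 45 of 128 and for DDIT3 44 of 208. The FPKM of NUPR1 and every ratio made from it thus rest on fewer reads than its peak does, and why was not tested.

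The authors' deposited table of the IP comparison gave M, the log2 ratio of normalized read density of lactate over vehicle IP, for 19 regions on the members. M was under 0 in 14 and over 0 in 5, with a median of −0.37, against 76811 under 0 of 116484 regions in all and a median of −0.50. In the authors' deposited table the 26381 regions with a peak in both lists had a median M of 0.00. Of the 9 member regions of that class, 7 were under 0 and 2 over, with a median of −0.41. They ranged from −1.07 for the shared PPP1R15A peak, at densities of 12.9 and 6.16, to 0.48 for ATF4, at densities of 1940 and 2707 in the authors' deposited table. The main TRIB3 region stood at −0.24 in that deposited table, with densities of 428 and 363, ATF3 at −0.87 with 33.6 and 18.3, and NUPR1 at −0.41 with 517 and 390. ATF4 thus lay under the median gene by FPKM and above the shared peaks by M, on scales that are centred differently.

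Some member values are uncertain because of neighbours. DDIT3 overlaps MARS1, the methionyl-tRNA synthetase gene, at its 3′ end, and a MARS1 peak at chr12:57515920-57516807 with a fold of 9.10 reached into the DDIT3 span in vehicle cells, as did one at chr12:57516269-57516843 with a fold of 6.29 in lactate cells. MARS1 itself had FPKM 4.17 in the vehicle input and 20.3 in the vehicle IP. In the authors' IP comparison the DDIT3 region had densities of 570 in vehicle and 498 in lactate cells. The main TRIB3 region had 428 and 363, though in the vehicle IP TRIB3 had 1881 reads and DDIT3 208. Why was not tested. CEBPB overlaps the noncoding gene CEBPB-AS1, which had 0 to 8 reads. How counting treated strand was not given in the sources used here, and reads of such pairs cannot be told apart. The ATF4 pseudogenes ATF4P3 and ATF4P4 had at most 5 reads in any library.

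Other genes of the response were taken from 7 lists of 113 symbols, 110 of them in the table. Among 14 measured kinases, eIF2 and eIF2B subunits and their regulators, 0 were 2-fold higher (1.76% of all genes) and 0 lower (6.46%) in the lactate input. Their median of −0.36 was above that of all genes. EIF2AK4 (GCN2), the kinase that senses uncharged tRNA, was highest at −0.02 and EIF2S2, an eIF2 subunit, lowest at −0.90. In the IP of vehicle cells 4 of 16 were higher (27.6% of all genes) and 1 lower (15.3%). EIF2AK4 stood at 1.90, from FPKM 1.35 to 7.78, and EIF2S3 at −1.83, from 39.8 to 10.5. In lactate cells the same genes were again highest (1.03) and lowest (−2.16).

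Amino acid enzymes induced by ATF4 had a median of −0.73 over 10 measured genes in the inputs, with 1 lower by 2-fold, PSPH of serine synthesis at −1.09, and 8 under the median gene. Amino acid transporters had a median of −0.72 over 7 genes, with SLC1A5, a glutamine carrier, lower by 2-fold at −1.11 and 6 under the median gene. Aminoacyl-tRNA synthetases stood at −0.57 over 11 genes with 0 past 2-fold (LARS1 −0.18, SARS1 −0.80). Other ATF4 or CHOP targets stood at −0.40 over 13 genes, also with 0 past 2-fold (ERO1A −0.18, ATF5 −0.95). Of all measured genes in the inputs, 1.76% were 2-fold higher and 6.46% lower.

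The same lists held both enriched and depleted genes in the IP, except the synthetases in vehicle cells, and their counts stand against 27.6% of all genes 2-fold higher and 15.3% lower in vehicle cells, and 16.0% and 23.3% in lactate cells. In vehicle cells 2 of 11 enzymes were 2-fold higher and 4 lower, with PHGDH, the first enzyme of serine synthesis, at 2.07 and MTHFD2 of mitochondrial folate metabolism at −1.78. Of the 7 transporters 3 were higher and 2 lower, with SLC7A5, a leucine carrier, at 1.93 and SLC38A2, a glutamine carrier, at −2.37. Synthetases had 7 of 12 higher and 0 lower, led by EPRS1 at 2.08, with NARS1 lowest at −0.73. Other targets had 3 of 15 higher and 4 lower, from EIF4EBP1, a translation inhibitor, at 1.56 to ERO1A, an oxidase of the endoplasmic reticulum, at −1.40. In lactate cells the counts were 1 higher and 3 lower of 10 enzymes, 3 and 2 of 7 transporters, 3 and 1 of 10 synthetases, and 3 and 3 of 13 other targets. The highest gene of each of these 4 lists was PHGDH at 1.48, SLC7A5 at 1.79, SARS1 at 1.39 and EIF4EBP1 at 1.53, and the lowest was PSAT1 at −1.91, SLC38A2 at −2.48, NARS1 at −1.88 and CEBPG at −1.96. Between the IPs, synthetases had the lowest list median, −1.33, with 8 of 12 genes 2-fold lower in lactate cells, against −0.74 and 27.7% over all genes. With median ratio or nuclear scaling 0 genes of any of the 7 lists were 2-fold lower. The enrichment of the synthetases in lactate cells differed from that in vehicle cells by a median of −0.70, against −0.36 over all genes.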

How the data were processed

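RNA from PANC-1 cells was measured in 4 libraries, 1 per group. Per the submitters' processing notes, the tools named are HISAT2 2.1.0, DiffBind, HOMER 4.11.1, MACS2 2.2.7.1, fastp 0.20.1 and bedtools 2.29.2, with build GRCh38. A gene counting tool and an annotation release were not given in the sources used here. FPKM per gene are the authors' deposited values. They also deposited peak lists, each IP against its own input, with a fold (ratio), p-value, q-value and −log10 values per peak, per the file headers. A deposited IP comparison gave normalized density (signal) and its log2 ratio, per the file headers.

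Whole reads were recovered from the steps of low FPKM values and were whole for 100% of 72387 values within 0.001 reads. Gene lengths mostly came from the recovered reads, so this figure cannot reveal a lost factor common to both. The recovery was also tested on simulated data. Depth was 11175432 to 17626197 reads, and a count of 0 allows up to 3 reads. Ratios used FPKM + 1 for counts past 2-fold, over genes with FPKM of at least 1 in a compared library. Ratios without a pseudocount carry exact 95% intervals conditional on the 2 read numbers (a normal approximation for the difference of enrichments), with the median gene taken as fixed. Reads at a summit were solved from the listed fold and p under a Poisson test with 1 added to both sides of the fold.

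All 10 members are named. Of each other list, the highest and lowest gene of a comparison, and genes past 2-fold where few, could be named. For each member the peak with the smallest q, and all peaks where there were 5 or fewer, could be named. The members and lists were chosen with earlier results of these data known. Alternatives were other pseudocounts, scalings, FPKM minimums, peak thresholds and motifs. Python 3.11.15, numpy 2.4.6, scipy 1.17.1 and pandas 2.3.3 were used.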

Additional observations from a re-analysis of the deposited data

Results flagged for a closer look

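ATF4 had opposite signs of enrichment in the 2 conditions, at 0.43 on log2 FPKM + 1 in vehicle cells and −0.11 in lactate cells, a difference of −0.54. Relative to the median gene it stood at −0.01 and −0.02 on that scale, and without a pseudocount at −0.19 (−0.23 to −0.15) and 0.06 (−0.01 to 0.12). NUPR1 also had opposite signs, at −0.03 in vehicle cells and 0.40 in lactate cells, a difference of 0.43. Its gene level rests on fewer reads than its shared peak, whose fold was 2.18 in vehicle and 1.66 in lactate cells. Each side rests on 1 library pair, and neither difference was tested.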

How the results depend on the processing

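No paired analysis was possible because each group had 1 library, and for the same reason no library could be left out. The members' median changed sign for lactate IP over vehicle IP with nuclear scaling and for the change in enrichment (−0.28) with median ratios (0.07) and nuclear scaling (0.22). The members' median log2 ratio ranged from −1.04 (pseudocount 0.1) to −0.14 (median ratios) in the inputs and for IP over input in lactate cells was 0.86 with pseudocount 0.1 and higher still with nuclear scaling. It moved to 0.13 with median ratio scaling for IP over input in vehicle cells, and for lactate IP over vehicle IP with pseudocount 5 (−0.40), median ratios (−0.04) and nuclear scaling (0.05). Of the members in the inputs, those lower with lactate by 2-fold or more numbered 4 with pseudocount 0.1 and 0 with pseudocount 5, median ratios or nuclear scaling. In the lactate IP against the vehicle IP they numbered 5 with pseudocount 0.1 and 0 with either scaling. Members at least 2-fold higher in the IP of lactate cells numbered 1 with pseudocount 5 and 5 with nuclear scaling.

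Other genes of the response that were 2-fold lower in the lactate input numbered 2, then 10 with pseudocount 0.1 and 0 with pseudocount 5 or either scaling. In the IP of vehicle cells 29 were higher, then 14 with pseudocount 5 and 17 with median ratios, and 15 were lower, then 6 with pseudocount 5. In the IP of lactate cells 15 were higher, then 3 with pseudocount 5, 29 with nuclear scaling and 9 with an FPKM minimum of 5, and 15 were lower, then 7 with pseudocount 5. Between the IPs 28 were lower, then 53 with pseudocount 0.1, 9 with pseudocount 5 and 0 with either scaling. For the change in enrichment 0 were higher, then 1 with pseudocount 0.1 or either scaling, and 5 were lower, then 12 with pseudocount 0.1 and 0 with pseudocount 5 or either scaling. Leaving out intron peaks left 10 of 16 vehicle peaks, and the TGACGTCA motif gave 1 gene in place of 2. The cause of these moves was not tested. The sign of the log2 ratio was the same under all 5 settings for 7 of 10 members in the inputs, 5 for IP over input in vehicle and 9 in lactate cells, 4 between the IPs and 4 for the change in enrichment. Depth limits ATF3 most, with 6 to 65 reads.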

Other observations

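The bZIP genes that can pair with ATF4, DDIT3 or CEBPB, and the ATF6 and XBP1 arm of the unfolded protein response, give context to the regulators. Of 11 measured bZIP partners, 0 were 2-fold higher or lower in the lactate input (1.76% and 6.46% of all genes). Over the median gene lay 9 of them, with a median of −0.36. MAFG, a small MAF protein, was highest at −0.01 and NFE2L1, a factor of proteasome recovery, lowest at −0.57. In the IP of vehicle cells NFE2L1 was the highest partner at 2.19, from FPKM 4.18 to 22.6, and ATF1 the lowest at −2.25, from 10.2 to 1.35, and in lactate cells they stood at 1.89 and −1.89.

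The ATF6 and XBP1 arm had a median of −0.58 over 10 measured genes in the inputs, with 0 past 2-fold. HSPA5 (BiP), the main chaperone of the endoplasmic reticulum, was lowest at −0.96 and SDF2L1 highest at −0.24. In the IP of vehicle cells 5 of 12 genes were 2-fold higher (27.6% of all genes) and 2 lower (15.3%), led by CALR (calreticulin) at 1.77. In lactate cells 2 of 12 were higher (16.0%) and 2 lower (23.3%), again led by CALR at 1.53.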
